A study of Saccharomyces cerevisiae with 10 samples.

Results

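Mitochondrial ribosomal protein genes were followed across 10 messenger RNA libraries of diploid budding yeast. They were taken as the nuclear genes whose standard name in annotation R64 begins with MRPL, MRPS or RSM and a digit. This gave 54 genes among 6685 nuclear open reading frames in the files. Of these 54, 34 encode proteins of the large subunit (MRPL) and 20 are counted by name with the small subunit (MRPS and RSM). The annotation names RSM22, among the 20, as a tRNA methyltransferase and not as a subunit. All 54 passed the filter on low counts and were tested.

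All cells were BY4743 diploids in mid-logarithmic growth in rich medium, with 2 libraries per group. The groups were diploids in the [ESI+] state, homozygous hos2, set3 and snt1 deletion diploids, and naive diploids. [ESI+] is inherited like a prion and is known for the expression of subtelomeric genes. HOS2 encodes a histone deacetylase, SET3 a protein that binds methylated histone H3 and SNT1 a SANT-domain protein, and all belong to the Set3 histone deacetylase complex. The labels do not say whether replicates were separate cultures, so the spread behind each p-value is that between libraries and may be technical.

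The mitochondrial ribosome makes the few proteins that the mitochondrial genome encodes, which are mostly core subunits of the respiratory chain. Nearly all of its proteins are encoded in the nucleus, made in the cytosol and imported, while its ribosomal RNAs and the protein VAR1 come from the mitochondrial genome. In yeast the messenger RNAs of many of these proteins carry sites for Puf3, an RNA-binding protein that acts on transcripts for mitochondrial biogenesis. Genes of the respiratory chain itself are instead known as targets of the Hap2/3/4/5 activator, which binds CCAAT boxes in promoters.

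The Puf3 motif TGTANATA was found on the coding strand within 200 bases after the stop codon of 53 of the 54 genes (98.1%). Over all 6001 nuclear protein-coding genes searched the share was 14.1%. All 34 large-subunit genes had it, and the one gene without it was RSM22, which the annotation names as a methyltransferase. Of the 53 genes, 12 had more than one copy, and the 66 copies lay a median of 56.5 bases after the stop codon. The variable base was A in at least one copy of 29 genes, T in 17, C in 16 and G in 1. The windows are given for the 8 genes with the smallest p in [ESI+] against naive, then for 3 genes whose level differed least between those groups. Only 1 window is printed per gene, and RSM19, MRPL28 and MRPL36 have further copies. Those left out have T or C at the variable base, and none has a C 2 bases before it. As 53 of the 54 genes carry the motif, the printed windows are examples of its sequence and compare nothing. Each is read from R64, 5′ to 3′ on the coding strand, with the motif in capitals.
RSM19 (chrXIV:694996-695025, minus strand): atgatatatcaTGTAAATAagatcaagcca
MRPL37 (chrII:741638-741667, plus strand): tttggtatcctTGTAAATAaatatgtgtgt
MRPL4 (chrXII:1015467-1015496, plus strand): accctctctccTGTAAATAtatatatatat
MRPL8 (chrX:315714-315743, minus strand): gtgtattccctTGTAAATAtatagatgaca
MRPS12 (chrXIV:694269-694298, minus strand): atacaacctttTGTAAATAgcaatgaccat
MRPL39 (chrXIII:251207-251236, minus strand): ttcatttatccTGTAAATAagtaatggata
RSM7 (chrX:638192-638221, minus strand): gtaaacttgccTGTACATAaacacatttat
MRPL28 (chrIV:1386537-1386566, plus strand): ctgtctcctgcTGTAAATAactgatgatca
MRPL36 (chrII:483850-483879, minus strand): ataaacagcctTGTATATAccgcaacatat
MRPL7 (chrIV:937564-937593, plus strand): cccattcgtcaTGTAAATAtataaactgta
MRPL32 (chrIII:119206-119235, plus strand): aaacttaagccTGTATATAgaaacttaatt

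Among the 8 genes listed first, 7 had a copy with A at the variable base, against 22 of the other 46. A C stood 2 bases before a copy in 6 of the 8 and in 37 of the other 46. Both splits were looked at after the expression values were known and carry no test.

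The motif set these genes apart from the respiratory chain as a description of sequence. Puf3 motifs followed 4 of 34 nuclear genes for respiratory chain subunits (11.8%) and 6 of 138 cytoplasmic ribosomal protein genes (4.35%). They followed all 24 mitochondrial ribosomal protein genes with other names and all 13 mitochondrial aminoacyl-tRNA synthetase genes. The ATTGG form of the CCAAT box, searched on both strands from 250 bases before to 50 after the start, was in the promoter window of 29 of the 34 respiratory chain genes (85.3%). It was in 22 of the 54 mitochondrial ribosomal protein genes (40.7%), close to the 43.3% of all promoters. Further motifs were searched in these windows on both strands. AAAATTTT was in 3 of the 54 (5.56%, against 9.03% of all promoters), GATGAG in 10 (18.5%, against 20.4%) and CCCANACA, a core of Rap1 sites, in 2 (3.70%, against 2.90%). A match is a run of letters, not a measured binding site.

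**Figure D1:**
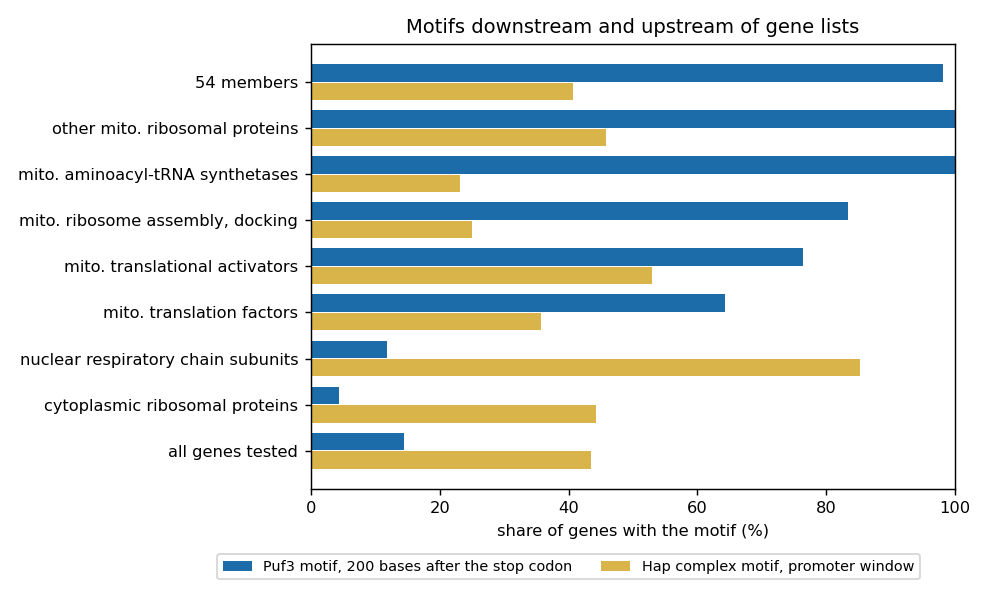
Share of genes in each list (%) with the Puf3 motif in the 200 bases after the stop codon (blue) and with the Hap complex motif in the promoter window (yellow). The 54 members reach 98.1% for the first and 40.7% for the second, whereas respiratory chain genes have 11.8% and 85.3%.

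Libraries held between 8327735 and 80651761 estimated counts, and each deleted gene had at most 4 counts in a library labelled as lacking it, against at least 51 in every other library. The 54 genes together held between 9352 counts (set3 deletion replicate 2) and 84309 counts (set3 deletion replicate 1). The least covered gene in every library was MRPL25, with 28 counts in the shallowest. Counts divided by TMM library sizes are written CPM, and their total differs between libraries. At nuclear genes with next to no reads in other groups, [ESI+] replicates 1 and 2 held a median of 0.302 and 1.43 CPM for each kb of coding length, while the other 8 libraries held 0 to 0.0882. Fold changes also followed coding length, most steeply in [ESI+] but in other libraries too. Genes in the lowest 25% by length had a median of -0.23 and -0.25 (log2) relative to the naive mean in [ESI+] replicates 1 and 2, and those in the top 25% had 0.35 and 0.47. In hos2 deletion replicate 2 these medians were -0.18 and 0.31, and in set3 deletion replicate 2 they were -0.22 and 0.27. The 54 genes are short, with a median coding length of 706.5 bases against 1077 for all nuclear open reading frames.

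Levels differed widely within the family. The deposited TPM, transcript levels divided by an effective length and scaled to a fixed total, averaged over the 10 libraries from 3.20 for RSM22 to 286 for MRPS12, with a median of 22.9. MRPS12, the homologue of a bacterial protein at the decoding centre, was followed by MRPL39 (136 TPM) and RSM19 (107 TPM). At the low end MRPL24 had 6.83 TPM and MRPL25 had 8.78 TPM. The bases of very short genes that can start a fragment are few, so TPM of MRPL39 (213 bases) and RSM19 (276 bases) depend on that length estimate.

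[ESI+] and naive diploids were compared first. Of the 54 genes, 16 fell and 0 rose (29.6%), counted at an adjusted p under 0.05 by the quasi-likelihood test of edgeR, adjusted over all genes by the Benjamini-Hochberg method. Over all 6390 genes tested 28.3% were called, 14.5% lower and 13.9% higher, so the share called was near the background. Short genes as a whole leaned lower, as given with coding length below. The direction of the calls is therefore not read against this even split. By limma on the deposited TPM, which puts the median of all genes at 0.74, 11 of the 54 rose and 7 fell. The share of all genes called in that fit is not given here, so these counts are not read as a result about the family. The median log2 fold change of the 54 was -0.30 against 0.093 for all genes. With spike-in library sizes it turned to 0.47, with all genes at 0.80, so it lay below the median of all genes by 0.39 in the first scaling and by 0.33 in the second. Spike-ins held 0.946% and 5.19% of the counts in [ESI+] replicates 1 and 2, and 1.43% to 3.31% in the other libraries. Spike-in sizes thus set the 2 [ESI+] libraries far apart, and the part of this in results under that scaling was not tested. A lower level cannot be told apart here from fewer cells that carry the transcript.

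**Figure D2:**
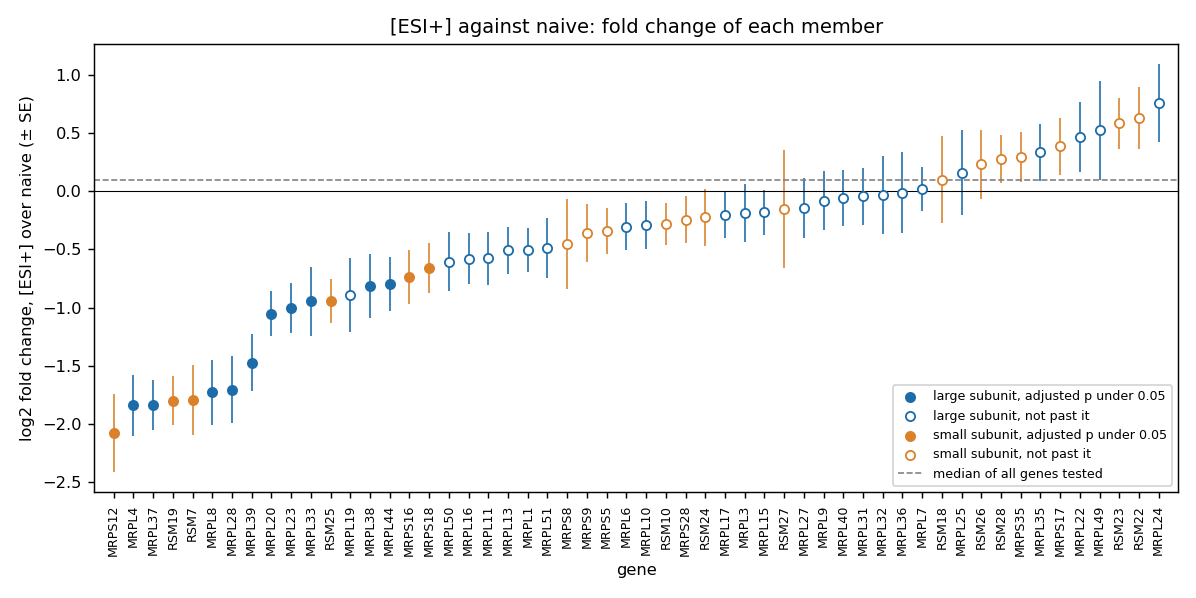
Log2 fold change of each of the 54 genes in [ESI+] over naive (y axis, ± SE, 2 libraries against 2), ordered from lowest to highest, with large-subunit genes in blue and small-subunit genes in orange. Filled points passed an adjusted p of 0.05, and all 16 of them lie below 0. The dashed line is the median of all genes, 0.093.

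The fall was uneven. The 8 genes with the smallest p had log2 fold changes between -2.07 and -1.47, and the next lowest gene, MRPL20, had -1.05 ± 0.19. The other 8 called genes lay between -1.05 and -0.66. With spike-in library sizes the 8 genes kept their sign, at -1.02 to -0.59, but 0 of them passed. Large-subunit genes (10 of 34 lower, median -0.40) and small-subunit genes (6 of 20 lower, median -0.27) both had calls. So did the 33 genes that the annotation names as homologues of bacterial proteins (11 lower, median -0.45) and the 20 named as specific to mitochondria (5 lower, median -0.18). The differences between these classes were not tested.

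MRPS12 fell most. It had 51.6 and 41.3 CPM in [ESI+] replicates 1 and 2, against 144 and 248 CPM in naive replicates 1 and 2. The groups did not overlap, and the log2 fold change was -2.07 ± 0.33 (edgeR adjusted p = 0.00191), or 23.8% of the naive level. It lies on chromosome XIV from 694361 to 694822 (R64, minus strand). RSM19, for a protein of the small subunit's head, lies 229 bases upstream of it on the same strand. RSM19 had 10.7 and 7.51 CPM in [ESI+], against 32.3 and 31.1 CPM in naive. Its log2 fold change was -1.80 ± 0.21 (edgeR adjusted p = 0.000493), the smallest adjusted p of the family beside that of MRPL37. They were the one pair of members that neighbour each other.

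RSM7, for another protein of the small subunit's head, had 30.4 and 23.9 CPM in [ESI+], against 76.3 and 112 CPM in naive. Its groups did not overlap either (log2 fold change -1.79 ± 0.30, edgeR adjusted p = 0.00208), although RSM7 is one of 5 members with estimated counts that are not whole, and so share reads with another target. Without [ESI+] replicate 2 its call was lost (adjusted p = 0.0518), whereas the calls of the other 7 genes held in every fit that left out 1 library.

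Large-subunit genes made up the rest of the 8. MRPL37, for a protein specific to the mitochondrial ribosome, had 11.3 and 8.41 CPM in [ESI+], against 34.6 and 35.7 CPM in naive. Its log2 fold change was -1.84 ± 0.21 (edgeR adjusted p = 0.000493). MRPL4, whose bacterial homologue sits by the exit of the peptide tunnel, had 19.4 and 15.8 CPM in [ESI+], against 50.1 and 76.0 CPM in naive (-1.84 ± 0.26, edgeR adjusted p = 0.00121). In both genes the lowest naive library stood more than 2-fold above the highest [ESI+] library.

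MRPL8 had 22.1 and 17.7 CPM in [ESI+], against 52.3 and 80.1 CPM in naive (-1.73 ± 0.28, edgeR adjusted p = 0.00188). MRPL28, another mitochondria-specific protein, had 6.31 and 6.55 CPM in [ESI+], against 16.8 and 25.4 CPM in naive (-1.71 ± 0.29, edgeR adjusted p = 0.00238). MRPL39, the shortest member, had 9.4 and 6.34 CPM in [ESI+], against 22.2 and 21.4 CPM in naive (-1.47 ± 0.24, edgeR adjusted p = 0.00196). For MRPL8 and MRPL28 naive replicate 2 was the higher naive library, as for MRPS12, MRPL4 and RSM7, while the naive libraries of MRPL39, MRPL37 and RSM19 lay close together.

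**Figure D3:**
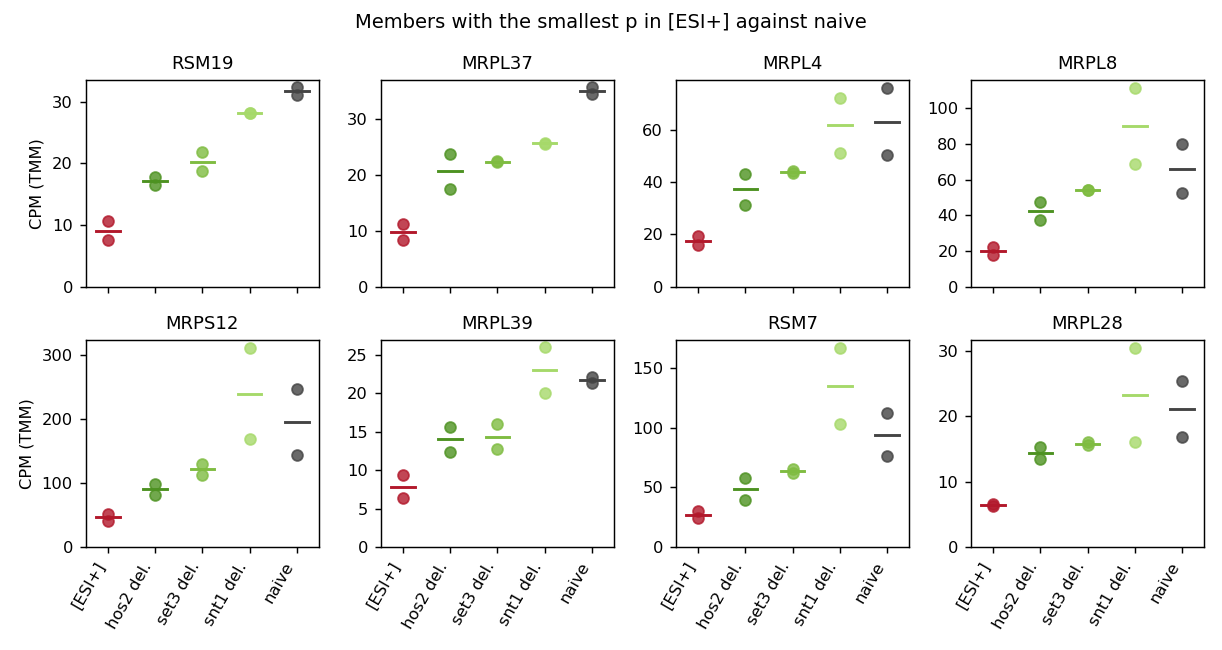
CPM with TMM library sizes (y axis, from 0) of the 8 genes with the smallest p in [ESI+] against naive, for each of the 5 groups. Points are libraries and bars are means of 2 libraries. In every panel both [ESI+] libraries lie below both libraries of each other group.

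The other called genes fell less. MRPL20 had 16.8 and 12.8 CPM in [ESI+], against 28.8 and 32.4 CPM in naive. RSM25 had 12.6 and 10.8 CPM in [ESI+], against 21.6 and 23.4 CPM in naive (-0.94 ± 0.19, edgeR adjusted p = 0.00530). MRPL23 had 15.2 and 11.1 CPM in [ESI+], against 26.5 and 26.2 CPM in naive (-1.0 ± 0.22, edgeR adjusted p = 0.00740). These 3 calls were each lost without [ESI+] replicate 2 and held in the other 3 such fits. MRPL44, MRPS16, MRPL33, MRPS18 and MRPL38 had adjusted p-values from 0.0255 to 0.0432 by edgeR, and each was called in at most 1 of the 4 fits without 1 library. Without [ESI+] replicate 2 the family's count was 7, all lower. Naming rested on p, so the values of these 16 describe them and say nothing of the family as a whole.

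No member rose past the threshold in this fit. Without naive replicate 1, 3 members were higher and 11 lower, and 1 was higher with only the groups compared, with a mean of at least 10 CPM or with silent-gene reads subtracted. The highest fold changes were those of MRPL24 (0.75 ± 0.34, edgeR adjusted p = 0.108) and RSM22 (0.63 ± 0.27, edgeR adjusted p = 0.0921). MRPL24 had 8.23 and 7.39 CPM in [ESI+], against 6.21 and 2.80 CPM in naive. RSM22 had 8.32 and 8.53 CPM in [ESI+], against 6.77 and 3.89 CPM in naive. In neither gene did the groups overlap, which is common here, since 39.7% of all genes lay wholly higher and 32.5% wholly lower in [ESI+]. Of the 54 genes, 7 lay wholly higher and 32 wholly lower.

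Because part of the family fell and part did not, its composition differed. The 8 genes took 19.8% and 19.4% of the family's summed CPM in [ESI+] replicates 1 and 2. In hos2 deletion libraries they took 25.5% and 31.3%, in set3 deletion libraries 31.6% and 32.3%, in snt1 deletion libraries 35.8% and 52.1%, and in naive libraries 36.2% and 48.2%. This ratio lies within a library, so no library size enters it, and both [ESI+] libraries were below the other 8. As the 8 were picked by p in [ESI+] against naive, a low share in these [ESI+] libraries is favoured by the choice, and the gaps to naive and to the deletions are descriptions. The whole family summed to 815 and 659 CPM in [ESI+], against 1183 and 1308 CPM in naive. Taken instead as a share of all counts at nuclear open reading frames, it was 0.139% and 0.115% in [ESI+], against 0.147% and 0.111% in naive, and these overlap.

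**Figure D4:**
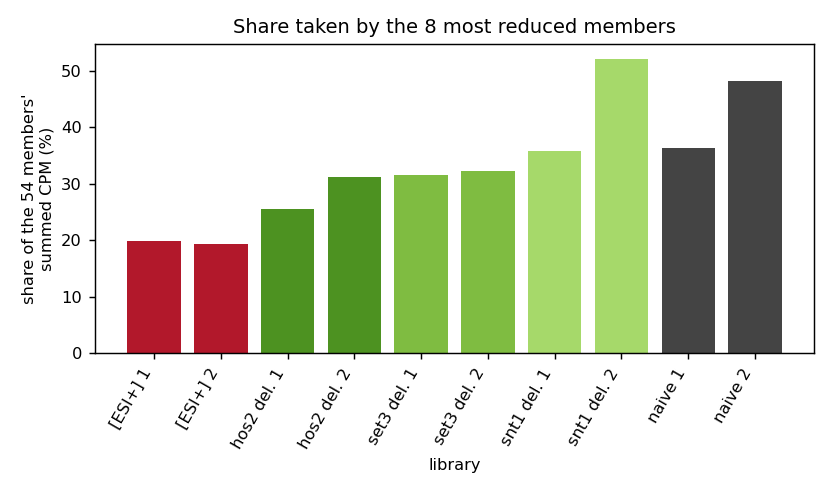
Share (%, y axis from 0) of the summed CPM of the 54 genes that the 8 genes with the smallest p in [ESI+] against naive took in each of the 10 libraries. The bars of [ESI+] are at 19.8% and 19.4%, and the highest is snt1 deletion replicate 2 at 52.1%.

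Coding length moved with the calls. Of the 27 shorter members (213 to 699 bases) 12 were lower (44.4%) and 0 higher. Of all genes in that range of length 24.3% were lower and 3.33% higher. Of the 27 longer members (714 to 1887 bases) 4 were lower (14.8%) and 0 higher. Of all genes of such length 14.5% were lower and 10.7% higher. Across the 54 genes Pearson's r of log2 fold change with log2 coding length was 0.47, where all genes gave 0.19. Its r with log2 naive level was -0.76, and these share the naive libraries. Both are descriptions over genes that were measured in the same libraries. With each library's silent-gene reads subtracted and its trend with length removed, 11 members remained lower and 0 were higher. They held all 8 genes of smallest p, at log2 fold changes from -1.68 for MRPL4 to -1.10 for MRPL39, and MRPL20, RSM25 and MRPL23. The family's median was then -0.071 against 0.019 for all genes. The share of all genes called in this corrected fit is not given here, so the count of 11 is a description.

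Some genes next to the most reduced members were also lower. Of the 13 tested neighbours of the 8 genes that are not members themselves, 7 were lower, 0 were higher and 6 did not pass in [ESI+] against naive, with a median log2 fold change of -1.47. Of the 86 tested neighbours of the other 46 members, 11 were lower and 11 higher, with a median of 0.15. The first set of neighbours is shorter, with a median of 510 bases against 1394 bases, and whether length or position goes with the difference was not tested.

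COA3, for an assembly factor of cytochrome oxidase, starts 247 bases from MRPL8 on the other strand. Its log2 fold change was -2.52 ± 0.26 (edgeR adjusted p = 0.000348), below the -1.73 of MRPL8. LSM3, for a subunit of the Lsm complexes of RNA splicing and decay, starts 312 bases from MRPL4 and had -2.0 ± 0.24 (edgeR adjusted p = 0.000519). Divergent neighbours did not always move together, since DBP6 (ribosome assembly) beside RSM19 had 0.51 ± 0.25 (edgeR adjusted p = 0.135). The window shared by MRPL8 and COA3 is printed because both of its genes were lower. It is chrX:316426-316725 (R64), read toward MRPL8 on the minus strand, with the start codon of COA3, reversed, and the first 50 coding bases of MRPL8 in capitals.
MRPL8 and COA3: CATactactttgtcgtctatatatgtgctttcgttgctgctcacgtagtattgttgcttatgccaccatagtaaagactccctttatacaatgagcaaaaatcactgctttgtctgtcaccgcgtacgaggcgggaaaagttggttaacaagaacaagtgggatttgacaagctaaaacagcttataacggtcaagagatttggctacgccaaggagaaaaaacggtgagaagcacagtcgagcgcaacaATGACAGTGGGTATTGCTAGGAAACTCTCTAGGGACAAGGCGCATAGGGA

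The comparison of [ESI+] with the mean of the 3 deletion groups does not take the naive level as its reference. The naive libraries still enter the filter, the TMM scaling and the spread behind its p-values. Of the 54 genes, 20 fell and 0 rose (37.0%), beside 35.1% of all genes called, with 15.9% of all genes lower and 19.2% higher. All 8 genes above were lower, from -1.57 ± 0.29 for MRPS12 (edgeR adjusted p = 0.00286) to -1.09 ± 0.21 for MRPL39 (edgeR adjusted p = 0.00294). By limma on log2(TPM + 1) 5 of the 8 passed. Without [ESI+] replicate 2 the log2 fold changes of the 8 were -1.46 to -0.83. The stability of calls given above is for the comparison with naive alone. The calls in this comparison and in that with naive share the [ESI+] libraries, and 15 genes were called in both. Without [ESI+] replicate 2 the count was 3. The family's median was -0.38, against 0.084 for all genes, and with spike-in library sizes it turned to 0.77, against 1.10.

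The hos2 deletion was compared with naive to find transcripts that depend on the deacetylase. Of the 54 genes, 2 fell and 0 rose (3.70%), beside 7.65% of all genes called, 4.69% lower and 2.96% higher, and the family's median log2 fold change was -0.012. Both are among the 8 above. RSM19 had 17.8 and 16.5 CPM in the hos2 deletion, against 32.3 and 31.1 CPM in naive (-0.89 ± 0.20, edgeR adjusted p = 0.0259). MRPL37 had 23.9 and 17.6 CPM in the hos2 deletion, against 34.6 and 35.7 CPM in naive (-0.76 ± 0.21, edgeR adjusted p = 0.0470). At most 1 of these calls held in each fit that left out 1 library, and none held without either hos2 library or without naive replicate 2. The other 6 of the 8 had values between -1.11 (MRPS12, edgeR adjusted p = 0.0595) and -0.55 (MRPL28, edgeR adjusted p = 0.265).

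In the set3 deletion 0 of the 54 genes passed by edgeR, and 0 by DESeq2, while 3 had an unadjusted p under 0.05, all of them lower. Of all genes 2.5% were called there, 1.92% lower and 0.579% higher. The 8 genes had log2 fold changes from -0.69 (MRPS12) to -0.28 (MRPL8), with a smallest edgeR adjusted p of 0.129 over the family. MRPS12 had 130 and 113 CPM in the set3 deletion, against 144 and 248 CPM in naive, with no overlap. In the snt1 deletion 0 passed by edgeR and 0 by DESeq2, 0 had an unadjusted p under 0.05, and 0.454% of all genes were called, 0.391% lower and 0.0626% higher. The 8 genes ranged from -0.45 (MRPL37) to 0.52 (RSM7). MRPS12 had 169 and 311 CPM in the snt1 deletion, and its libraries overlapped with those of naive.

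The snt1 deletion libraries differed from each other within the family, and so did the naive libraries. RSM7 had 103 and 167 CPM in snt1 deletion replicates 1 and 2, against 76.3 and 112 CPM in naive. MRPL22 had 23.2 and 12 CPM in the snt1 deletion, against 21.2 and 13.5 CPM in naive. In both groups replicate 2 was the higher for RSM7 and the lower for MRPL22. The comparisons of the deletions with naive share the naive libraries, so their values stand side by side and are not independent. The median SE of a member's log2 fold change was 0.25 in each deletion against naive.

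**Figure D5:**
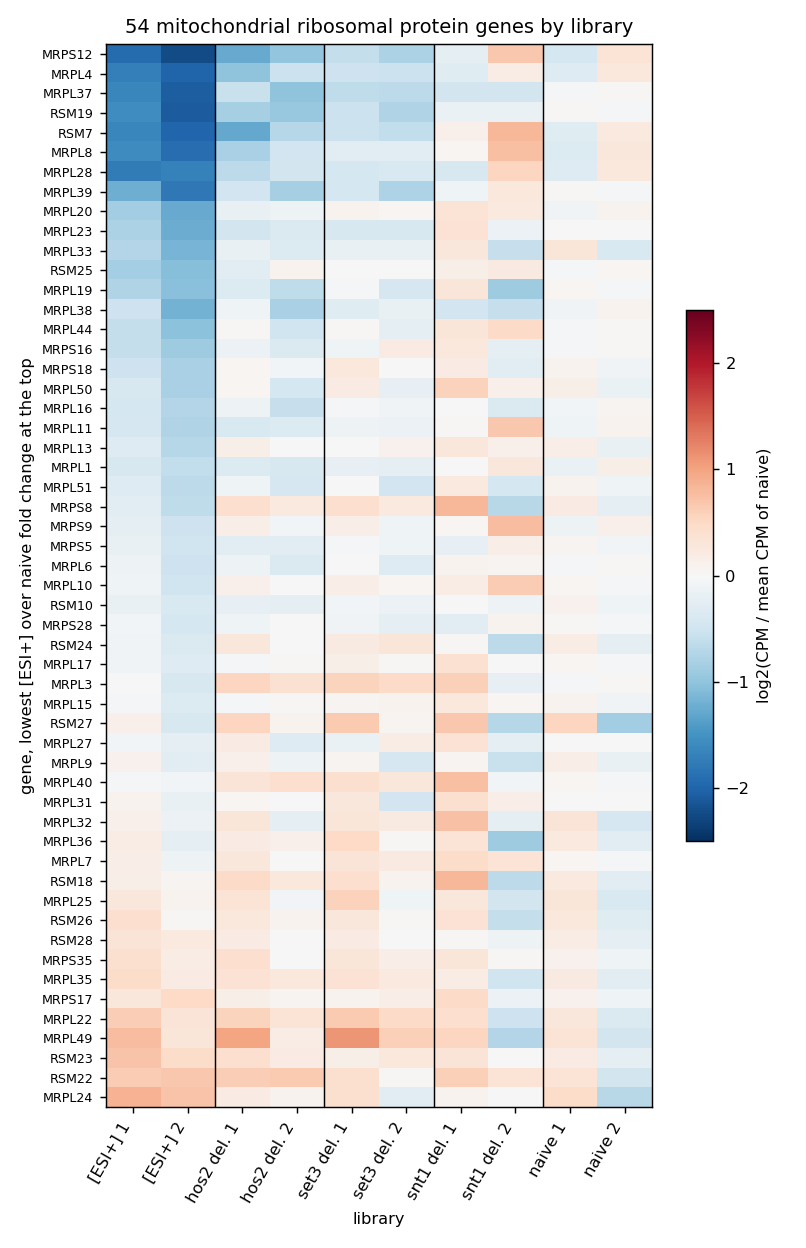
Log2 of CPM over the mean CPM of naive (colour) for the 54 genes (rows, ordered by fold change in [ESI+] over naive) in the 10 libraries (columns, by group). The top 8 rows are blue in both [ESI+] libraries, down to -2.07 by the fit for MRPS12, paler blue in the hos2 and set3 deletion libraries, and mixed in the snt1 deletion.

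The rest of the mitochondrial translation system was followed through lists of genes. These counts depended on scaling, since with spike-in library sizes 0 genes of any list passed. That scaling carries the unequal spike-in shares of the [ESI+] libraries given above. By limma on TPM 13 of 17 translational activator genes, 7 of 13 aminoacyl-tRNA synthetase genes and 6 of 14 translation factor genes rose. So did 4 of 6 transcription genes and 2 of 12 assembly genes, and 0 genes of these lists fell. That fit puts the median of all genes well above 0, as given above. Relative to it the lists had medians of 0.51, 0.08, -0.16, 0.19 and -0.20, in the order named. The share of all genes called is not given here for that fit or for the corrected fit below. Counts of any list in these 2 fits are therefore descriptions. Each list's median kept its side of the median of all genes under TMM, RLE, spike-in and TPM scaling. With silent-gene reads and the length trend both removed, 4 activator genes rose and 1 fell, and 1 transcription gene rose. In that fit 0 synthetase genes passed, while 3 translation factor genes and 2 assembly genes fell and 0 of either list rose. Of 24 mitochondrial ribosomal protein genes with other names, 6 fell and 0 rose in [ESI+] against naive (median -0.39), but 2 fell and 5 rose by limma on TPM, and 5 fell and 2 rose with silent-gene reads and the length trend both removed. IMG1, of the large subunit, had 27.6 and 20.4 CPM in [ESI+], against 96.1 and 162 CPM in naive (-2.42 ± 0.31, edgeR adjusted p = 0.000780). MRP20, whose bacterial homologue lies at the tunnel exit, had -1.51 ± 0.23 (edgeR adjusted p = 0.00152), and YML6, also of the large subunit, had -0.89 ± 0.18 (edgeR adjusted p = 0.00514).

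Of 14 translation factor genes, 2 fell and 1 rose. TUF1, the elongation factor Tu of mitochondria, had 204 and 147 CPM in [ESI+], against 277 and 356 CPM in naive (-0.85 ± 0.24, edgeR adjusted p = 0.0232). PTH1, a peptidyl-tRNA hydrolase, had -1.27 ± 0.28 (edgeR adjusted p = 0.00762), and HER2, a subunit of the mitochondrial glutamyl-tRNA amidotransferase, had 0.89 ± 0.30 (edgeR adjusted p = 0.0459). Of 12 genes for ribosome assembly and membrane docking, 1 fell and 1 rose. OXA1, the inner membrane insertase that binds the ribosome, had 28.7 and 28.2 CPM in [ESI+], against 63.3 and 86.5 CPM in naive (-1.39 ± 0.27, edgeR adjusted p = 0.00446). MTG1, a GTPase of ribosome assembly, had 7.13 and 7.28 CPM in [ESI+], against 4.4 and 1.48 CPM in naive (1.24 ± 0.41, edgeR adjusted p = 0.0439). Of 13 aminoacyl-tRNA synthetase genes, 1 rose (7.69%, beside 13.9% of all genes) and 0 fell. The gene that rose was ISM1, at 0.69 ± 0.22 (edgeR adjusted p = 0.0348).

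Of 17 genes for activators of the translation of single mitochondrial messengers, 6 rose and 2 fell, with a median of 0.74. ATP22 had 18.0 and 18.1 CPM in [ESI+], against 8.66 and 7.94 CPM in naive (1.11 ± 0.20, edgeR adjusted p = 0.00302). PET111, which acts on the COX2 messenger, had 1.40 ± 0.27 (edgeR adjusted p = 0.00417), and AEP1 had 1.20 ± 0.28 (edgeR adjusted p = 0.0101). Of 6 genes for mitochondrial transcription and RNA turnover 2 rose, MSS116, an RNA helicase, at 0.99 ± 0.24 (edgeR adjusted p = 0.0120) and DSS1, a nuclease subunit, at 0.92 ± 0.27 (edgeR adjusted p = 0.0264).

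VAR1, the ribosomal protein of the mitochondrial genome, had 445 and 1288 counts in [ESI+], against 19 and 2 counts in naive. The hos2, set3 and snt1 deletion libraries held between 3 and 22 counts. The log2 fold change in [ESI+] over naive was 4.51 ± 0.66 (edgeR adjusted p = 0.00140), opposite in sign to the nuclear members called. The level of mitochondrial reading frames moved with it, with a median over frames of 3.5 CPM for each kb in [ESI+] replicate 1 and 13.6 in replicate 2, while the other libraries held 0.0251 to 0.238. The level at silent nuclear genes given above moved with it as well, and their part in the result was not tested.

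Nuclear genes of the respiratory chain had 13 of 34 lower and 0 higher in [ESI+] (median -0.69), but 0 lower and 3 higher by limma on TPM. With silent-gene reads and the length trend both removed, 8 were lower and 1 was higher. In the hos2 deletion 5 of the 34 were lower (14.7%), beside 4.69% of all genes, and in the set3 deletion 3 were lower (8.82%), beside 1.92%. Of the 54 mitochondrial ribosomal protein genes 2 (3.70%) and 0 were lower, and those 2 calls were not stable, as given above. The difference between the lists was not tested. Of the regulators, 3 of 11 fell and 0 rose in [ESI+], against 0 lower and 2 higher by limma on TPM. With both corrections 6 were lower and 0 higher. The 3 that fell in the first fit were all subunits of the Hap activator, with HAP3 at -1.63 ± 0.23 (edgeR adjusted p = 0.00121), HAP5 at -1.13 ± 0.23 (edgeR adjusted p = 0.00578) and HAP2 at -1.03 ± 0.19 (edgeR adjusted p = 0.00332). HAP4, the inducible subunit, had 125 and 113 CPM in [ESI+], against 93.4 and 77.2 CPM in naive (0.48 ± 0.26, edgeR adjusted p = 0.174). In the hos2 deletion HAP4 had 36.8 and 51.7 CPM (-0.95 ± 0.26, edgeR adjusted p = 0.0470).

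PUF3 had 19 and 22.4 CPM in [ESI+], against 24.4 and 34.2 CPM in naive (-0.50 ± 0.27, edgeR adjusted p = 0.186). Among genes outside the family, the 782 tested genes with its motif after the stop codon had 129 lower (16.5%) and 99 higher (12.7%) in [ESI+]. The 4945 without it had 703 lower (14.2%) and 726 higher (14.7%). Their median log2 fold changes were 0.077 with the motif and 0.091 without it. The difference between these sets was not tested.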

How the data were processed

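Per the labels' protocols, polyadenylated RNA with ERCC spike-ins was copied on beads, sheared and read in pairs. The deposited values are expected counts, estimated reads per target without normalization, and TPM scaled over all 7218 targets, per the file headers. The submitters' processing notes name kallisto 0.44 and build R64; strand use is not given in the sources used here. Gene names, positions and sequences come from RefSeq R64 (6006 of 6685 reading frames matched). Expected counts were rounded, spike-ins set aside and genes filtered by filterByExpr. edgeR 4.0.16 (R 4.3.3) fitted 1 coefficient per group over all 10 libraries with TMM library sizes, and an SE is the fold change over the square root of F. CPM use TMM library sizes. Alternatives used DESeq2 1.42.0 and limma 3.58.1. A library's silent genes had 300 or more coding bases and under 0.2 CPM per kb on average in the other groups except [ESI+]. Shared reads mean a count more than 1e-04 from whole. The fit was tested on simulated data.

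The members, lists, tests and alternatives were chosen with earlier results of these data known. Values in every library were to be given for the 8 smallest p in [ESI+] against naive and for members called in a deletion. The same held for the highest and lowest 3 by TPM, the highest 2 fold changes and the 3 smallest p of each other list. For length, most library values are given for the groups compared alone. Several called genes of the other lists have a fold change and p alone. Genes among the 3 smallest p of a list that did not pass, and those of the respiratory chain, are left out. The values of MRPL20, RSM25, MRPL23 and MRPL22, neighbouring genes, the split by length, the other lists by scaling and the composition of the family were added after the values were seen.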

Additional observations from a re-analysis of the deposited data

How the results depend on the processing

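With spike-in library sizes 0 members passed in [ESI+] against naive, in the hos2 deletion or in [ESI+] against the deletions, and the family's medians were 0.47, 0.16 and 0.77, with -0.51 for set3 and -0.54 for snt1. By limma on log2(TPM + 1) the medians were 0.45 ([ESI+] against naive), 0.33 (hos2), -0.13 (snt1) and 0.35 ([ESI+] against the deletions), and with a pseudocount of 0.1 they were 0.47, 0.35, -0.14 and 0.37. By limma 0 passed in hos2 at either pseudocount, and 12 in [ESI+] against the deletions at the smaller one. Relative to all genes the median in [ESI+] against naive was between -0.47 and -0.30 under every scaling and filter tried, -0.28 with silent-gene reads subtracted, -0.19 with the length trend removed and -0.091 with both corrections (-0.071 before the median of all genes is taken off). Signs turned in [ESI+] against naive with spike-ins for MRPL44 (0.068), MRPS16 (0.093), MRPS18 (0.11) and MRPL38 (0.15). They turned by limma for MRPL44 (0.13, and 0.14 at the smaller pseudocount), MRPS16 (0.17 at both), MRPL33 (0.043 and 0.045), MRPS18 (0.13 and 0.14) and MRPL38 (0.033 and 0.034). MRPL39 against the deletions had 0.13 with spike-ins, and MRPL25 had -0.19 without naive replicate 2 and 0.55 without naive replicate 1. The causes were not tested.

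The 2 calls of the hos2 deletion became 4 by DESeq2 and with only the groups compared, 5 with a mean of at least 10 CPM, 1 without a filter, 0 with the length trend removed and 1 with both corrections. In set3 1 was called with only the groups compared. Fits without 1 library called 7 to 14 in [ESI+] against naive (3 of the 14 higher, medians -0.51 to -0.15), 0 to 1 in hos2 and 3 to 27 in [ESI+] against the deletions (medians -0.50 to -0.18), and the median of snt1 was -0.093 to 0.26. Replicate numbers were not taken as pairs, since the labels tie them to nothing shared and the deviations of same-numbered samples correlated unevenly, between -0.073 and 0.35 over the 10 pairs of groups. Some shared structure was not excluded. A replicate block called 25 (3 higher, 22 lower) in [ESI+] against naive, 5 in hos2 and 1 in set3. In the shallowest library members held 28 to 998 counts. Counts of members called in the fits of this section stand without the share of all genes called. They describe how the calls vary and are not results about the family.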
